A study of Mus musculus with 10 samples.

Results

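The vascular endothelial growth factor (VEGF) system was followed in single endothelial cells of mouse ear skin through 9 genes, out of 46517 Ensembl genes in the count tables. The genes were listed by name: the receptors Flt1 (VEGFR1), Kdr (VEGFR2) and Flt4 (VEGFR3), the co-receptors Nrp1 and Nrp2, and the ligands Vegfa, Vegfb, Vegfc and Pgf. All 9 were found by their Ensembl identifiers. Mutant mice carried Pik3caH1047R, an activating allele of the PI3K catalytic subunit, together with Cdh5-CreERT2, a tamoxifen-inducible Cre driven in endothelial cells, and received 4-OHT on the ear at 3 weeks and were analysed at 5 weeks (n = 5). The control group held 2 mice of the same age that differed from each other: control 1 was an untreated C57BL/6J mouse, whereas control 2 was a Cre- mouse of the Pik3caH1047R;Cdh5-CreERT2 strain that had received 4-OHT. Cells were sorted from ear skin by Podoplanin and CD31 after immune cells, erythrocytes and dead cells had been gated out, and each was sequenced by Smart-Seq2, a full-length method without molecular identifiers. Mutants 3 and 5 filled 2 plates each and the other mice 1 plate each.

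Of 3456 wells, 3248 passed the quality limits. A cell was called a lymphatic endothelial cell (LEC) when its depth-scaled counts (CPM, the reads of a gene per 1 M reads of the cell) of Prox1, Flt4 and Mmrn1 summed to at least 300 and exceeded the sum of Flt1, Emcn and Podxl, and a blood endothelial cell (BEC) in the reverse case. The rule gave 1641 LECs, 1490 BECs and 117 cells of neither class. Of the LECs, 544 held at least 100 CPM of Ptx3, the gene of the secreted pattern recognition protein pentraxin 3, and are called Ptx3-high. The sums stood within 2-fold of the limit in 18 LECs and 66 BECs, and Ptx3 lay between 50 and 200 CPM in 119 LECs. The counts of a class were summed per mouse, so each mouse gave 1 value per class, from 38402388 to 194353210 reads. Comparisons of classes were made within the 7 mice, and those of genotypes rest on 5 mutants against 2 controls. A change of such a sum can stem from fewer cells with the transcript or from less RNA per cell, and the 2 cannot be told apart from the sum alone.

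Several features moved with genotype and touch the results. Mutants 1 to 4 came from plates numbered 323 to 332, while mutant 5 and both controls came from plates numbered 891 to 901. Cycling cells, defined by reads of at least 3 of 7 proliferation genes, made up 1.64% and 2.29% of control LECs and 13.2 to 34.2% of mutant LECs, and at most 1.27% of control BECs and 3.45 to 23.5% of mutant BECs. Spike-in reads, in per mille of the reads of genes, were 6.33 and 7.25 in control LECs against 2.11 to 3.28 in mutant LECs, and 7.78 and 10.6 against 2.41 to 5.34 in BECs. Ptx3-high cells made up 6.56% and 25.1% of control LECs and 33.2 to 44.1% of mutant LECs. The summed level of 6 fibroblast markers was 201 to 392 CPM in control LECs and 15.8 to 107 CPM in mutant LECs, and 577 to 808 CPM against 12.8 to 43.5 CPM in BECs. Markers of mural cells (6 genes) and Schwann cells (5 genes) were also higher in control than in mutant LECs, at 125 to 147 against 39.4 to 70.5 CPM and at 21.1 to 92.8 against 0.953 to 13.9 CPM. Mural markers also differed in BECs, at 337 to 728 against 35.1 to 213 CPM. Keratinocyte markers (6 genes) overlapped at 211 to 394 against 71.8 to 352 CPM, and immune markers (6 genes) at 6.11 to 32.5 against 21.2 to 57.2 CPM. No listed marker was at 0 in all 7 mice at once, in LECs or in BECs. The part of these features in the genotype results was not tested except where values without them are given. Xist fell below 1 CPM in 3 mice, of which 1 was a control, so each group held both patterns.

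VEGF ligands are secreted dimers that bind 3 receptor tyrosine kinases on endothelial cells. VEGF-A signals mainly through VEGFR2, which drives growth and permeability of blood vessels, and it also binds VEGFR1, a receptor of high affinity and weak kinase activity that limits the ligand reaching VEGFR2. VEGF-B and placental growth factor (Pgf) bind VEGFR1. VEGF-C binds VEGFR3 and, once processed, VEGFR2, and is the main growth factor of lymphatic vessels. Neuropilins lack a kinase domain and present ligands to the receptors, with neuropilin-1 typical of arteries and capillaries and neuropilin-2 of veins and lymphatics. In skin, much VEGF-A is made by keratinocytes and other cells around the vessels, so the endothelial level describes only part of the ligand.

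The promoters are shown for the 2 members that were higher both in Ptx3-high LECs and in mutant LECs (Nrp2 and Pgf) and for the 2 members most restricted to BECs outside the class rule (Nrp1 and Vegfc). Each is the 250 bases before the gene's RefSeq start on GRCm38.p6, 5′ to 3′ on the gene's strand, with matches to the searched motifs in capitals. In these 4 windows the capitals mark only GC boxes (GGGCGG or its reverse complement CCGCCC).
Nrp2, chr1:62703067-62703316, plus strand: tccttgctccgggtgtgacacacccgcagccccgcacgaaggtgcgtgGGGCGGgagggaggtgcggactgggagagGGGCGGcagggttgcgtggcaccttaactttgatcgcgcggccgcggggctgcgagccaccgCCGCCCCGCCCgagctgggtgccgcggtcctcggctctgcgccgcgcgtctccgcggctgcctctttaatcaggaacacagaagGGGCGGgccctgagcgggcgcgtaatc
Pgf, chr12:85177314-85177563, minus strand: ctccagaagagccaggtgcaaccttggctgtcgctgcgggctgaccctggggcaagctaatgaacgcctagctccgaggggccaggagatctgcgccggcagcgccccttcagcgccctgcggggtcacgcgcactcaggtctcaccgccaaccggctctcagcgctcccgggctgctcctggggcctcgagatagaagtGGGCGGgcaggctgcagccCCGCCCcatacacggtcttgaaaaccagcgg
Nrp1, chr8:128358823-128359072, plus strand: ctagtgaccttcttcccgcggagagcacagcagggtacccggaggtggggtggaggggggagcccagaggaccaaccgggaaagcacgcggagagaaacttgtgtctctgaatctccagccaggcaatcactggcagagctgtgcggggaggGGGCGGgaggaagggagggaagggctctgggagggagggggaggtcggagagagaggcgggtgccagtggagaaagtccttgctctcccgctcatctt
Vegfc, chr8:54077282-54077531, plus strand: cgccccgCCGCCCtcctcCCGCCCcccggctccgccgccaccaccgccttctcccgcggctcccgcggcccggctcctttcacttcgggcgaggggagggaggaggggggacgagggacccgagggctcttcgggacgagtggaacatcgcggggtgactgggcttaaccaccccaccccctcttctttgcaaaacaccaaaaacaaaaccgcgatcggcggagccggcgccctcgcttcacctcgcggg

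Nrp2 held 5 GC boxes, of which a pair overlap, Pgf and Vegfc held 2 each and Nrp1 held 1, against 32.7% of all 32851 promoter windows with at least 1 on either strand. Their GC content was 72.4% for Nrp2, 68.4% for Pgf, 64.4% for Nrp1 and 71.6% for Vegfc, against a median of 52.4% over all windows. The other letters searched on both strands, each with the share of all windows that hold it, were TATAAA (12.4%), CCAAT (33.8%), the hypoxia response core ACGTG (16.6%), the forkhead core TGTTTAC (3.17%), the ETS core CCGGAA (12%), the SOX core AACAAT (9.42%) and the AP-1 core TGANTCA (6.75%). None of these occurred in the 4 windows. Among the remaining members, the Flt1 window held a TATAAA match and the Kdr window an ETS core. Both Vegfa windows held a CCAAT match. The second Vegfa window also held an ACGTG match, but it lies inside the span of the gene, at chr17:46025164-46025413. The Pgf, Nrp1 and Flt4 windows likewise lie inside the spans of their genes. A match of letters is a description of the window and does not show binding. A second RefSeq start of Pgf, with a window at chr12:85175983-85176232 that also lies inside the gene, held none of the 8 motifs.

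All 9 genes lie on autosomes of GRCm38. Flt1 (ENSMUSG00000029648) spans chr5:147561604-147726011 and Kdr (ENSMUSG00000062960) chr5:75932827-75978458, while Flt4 (ENSMUSG00000020357) spans chr11:49609263-49652739. Nrp1 (ENSMUSG00000025810) spans chr8:128358604-128503363 and Nrp2 (ENSMUSG00000025969) chr1:62703285-62818695. Among the ligands, Vegfa (ENSMUSG00000023951) spans chr17:46016993-46032369, Vegfb (ENSMUSG00000024962) chr19:6982473-6987651, Vegfc (ENSMUSG00000031520) chr8:54077606-54187096 and Pgf (ENSMUSG00000004791) chr12:85166635-85177790. The counts were taken over exons of each gene. Strandedness of the counting was not given in the sources used here, but Nrp2 shared 0 exon bases with its neighbours Gm29083 and Gm37121.

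LECs and BECs carried different receptor sets. To order the genes within a class, levels were divided by exon length and are given as CPM per kb, as the mean of 7 mice with its SD. In LECs, Flt4 stood first at 221 ± 23.7 CPM per kb, followed by Pgf at 83.0 ± 43.2, Kdr at 70.8 ± 10.5 and Nrp2 at 60.3 ± 21.9. The ranges of the last 3 overlapped, whereas the lowest Flt4 value, 187 CPM per kb, lay above all of them. Vegfb followed at 14.7 ± 7.20 CPM per kb. Nrp1 averaged 2.03 ± 2.89 CPM per kb, which rested on 8.55 in control 1 (median 0.817), and its range overlapped those of Vegfc, Vegfa and Flt1, which lay below 1 CPM per kb on average. In BECs, Nrp1 stood first at 122.5 ± 29.98 CPM per kb, ahead of Kdr at 57.0 ± 11.5 and Flt1 at 50.9 ± 8.42, whose ranges overlapped. Vegfc at 25.2 ± 6.42 and Nrp2 at 16.9 ± 5.16 came next, also with overlapping ranges, then Flt4 at 9.99 ± 2.25, Pgf at 9.47 ± 6.23 and Vegfb at 5.68 ± 1.55. Vegfa was last in BECs at 0.524 ± 0.432 CPM per kb.

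**Figure D1:**
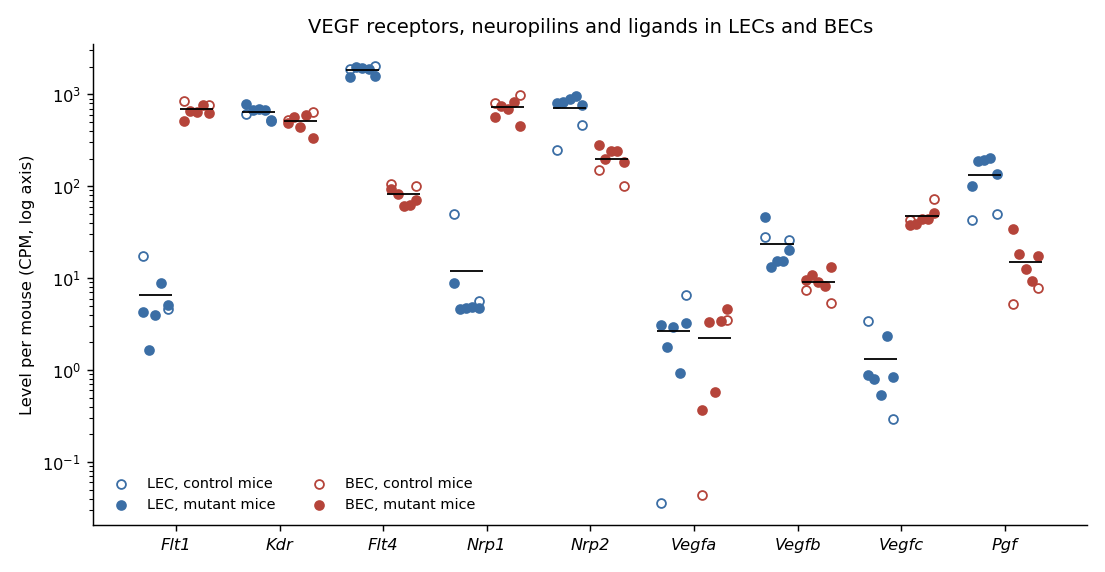
Level of each of the 9 genes in LECs and BECs, in CPM on a log axis, with 1 point per mouse, open for controls and filled for mutants, and a bar at the mean of 7 mice. Kdr, Nrp2 and Vegfa overlap between the classes, Flt4 and Pgf sit higher in every LEC sum, and Flt1, Nrp1 and Vegfc sit higher in every BEC sum.

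Flt1 and Flt4 helped to define the classes, so their levels are a description. Flt4 ranged from 1538 to 2042 CPM in LECs and from 60.6 to 106 CPM in BECs, and Flt1 from 1.64 to 17.4 CPM in LECs and from 512.5 to 855 CPM in BECs. When the classes were set without these genes, by Prox1 and Mmrn1 against Emcn and Podxl, the log2 fold change of LECs over BECs was 3.48 for Flt4 (edgeR, adjusted p = 9.06e-06) and -6.76 for Flt1 (adjusted p = 1.11e-05). Under the class rule as given, 82 cells changed sides when these genes were dropped.

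Of the 7 members outside the rule, 5 differed between LECs and BECs by edgeR's quasi-likelihood test with Benjamini-Hochberg adjustment, with 3 higher in LECs and 2 higher in BECs, against 25.9% of all genes tested. At an unadjusted p under 0.05 there were 6 of 7, against 36.7% of all genes, and DESeq2 called the same 5, against 35% of all genes. Each mouse gave both a LEC and a BEC sum and was kept as a block. With the 2 control mice alone, none of these 5 passed, at log2 fold changes of -5.71 for Nrp1, -5.67 for Vegfc, 2.84 for Pgf, 2.07 for Vegfb and 1.45 for Nrp2 (edgeR, adjusted p from 0.0576 to 0.155, 4 sums).

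Kdr, the main signalling receptor, was present at overlapping levels in both classes. It measured 608 and 517 CPM in control LECs and 779, 671, 695, 681 and 527 CPM in LECs of mutants 1 to 5. In BECs it measured 527 and 646 CPM in controls and 485, 561, 446.5, 602 and 336 CPM in mutants. The classes overlapped, but within mice Kdr was higher in LECs in 6 of 7. The log2 fold change of 0.30 (SE 0.12) did not pass (edgeR, unadjusted p = 0.0358, adjusted p = 0.107). Over the mutants alone, Kdr was higher in LECs by 0.44 on the log2 scale (edgeR, adjusted p = 0.0138), whereas over the controls alone the value was -0.08 (adjusted p = 0.932).

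Nrp1 was the member with the widest gap outside the rule. Control BECs held 799 and 987 CPM and mutant BECs 565, 755, 690, 822 and 448 CPM. LECs held 50.5 CPM in control 1, 5.63 CPM in control 2 and 4.603 to 8.77 CPM in the mutants, so every BEC sum lay above every LEC sum. The log2 fold change of LECs over BECs was -6.67 (SE 0.50, edgeR, adjusted p = 1.77e-05).

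Nrp2 was higher in LECs than in BECs in each of the 7 mice, by a log2 fold change of 1.76 (SE 0.17, edgeR, adjusted p = 7.4e-05). BECs held 151.5 and 100.4 CPM in controls and 280, 197, 244, 240 and 186 CPM in mutants. LECs held 247 and 469 CPM in controls and 807.5, 836, 900.3, 970 and 768 CPM in mutants. The highest BEC sum, from mutant 1, thus exceeded the LEC sum of control 1, and the ranges overlapped.

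The ligands divided between the classes. Vegfc, the lymphangiogenic ligand, measured 42.6 and 72.9 CPM in control BECs and 37.5 to 50.8 CPM in mutant BECs, but 3.42 and 0.294 CPM in control LECs and 0.541 to 2.35 CPM in mutant LECs. Its log2 fold change of LECs over BECs was -5.57 (SE 0.54, edgeR, adjusted p = 7.12e-05). Few LECs carried these reads: a single cell held 80.6% of the Vegfc reads of LECs in control 1 and 93.3% in mutant 2. Pgf went the other way and was higher in LECs by a log2 fold change of 3.13 (SE 0.33, edgeR, adjusted p = 1.25e-04). It measured 42.8 and 49.7 CPM in control LECs and 101.5, 190.5, 193, 203.5 and 138 CPM in mutant LECs, above every BEC sum, the highest of which was 34.5 CPM in mutant 1. Vegfb, the other VEGFR1 ligand, measured 13.2 to 46.6 CPM in LECs and 5.34 to 13.1 CPM in BECs. Its classes did not overlap and the log2 fold change was 1.25 (SE 0.31, edgeR, adjusted p = 0.016), but Vegfb lost the call when cells positive for both marker sums were left out (0.77, adjusted p = 0.262) and over the mutants alone (0.91, adjusted p = 0.0746).

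Vegfa was low in both classes. In control 1 only 2 reads were found in LECs and 2 in BECs, against 0.935 to 6.52 CPM in the other LEC sums and 0.365 to 4.59 CPM in the other BEC sums. The log2 fold change was 0.35 (SE 0.70, edgeR, adjusted p = 0.774). In control 2, 1 cell held 90.2% of the Vegfa reads of BECs.

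The share of cells with a read was compared after each cell was thinned to 50000 reads, at which 1 read equals 20 CPM. In LECs it was 99.7 ± 0.59% for Flt4 (SD, n = 7), 95.3 ± 1.86% for Kdr and 82.9 ± 10.7% for Nrp2. Pgf reads occurred in 31.3 ± 12.04% of LECs, Nrp1 in 22.9 ± 12.6% and Flt1 in 22.3 ± 9.51%. In BECs, Flt1 was found in 92.2 ± 3.01% of cells, Nrp1 in 88.6 ± 5.63% and Kdr in 87.3 ± 4.72%. Flt4 reads occurred in 65.1 ± 16.2% and Nrp2 reads in 63.5 ± 14.1% of BECs. In cells of neither class the shares were 53.0 ± 18.2% for Flt1, 69.5 ± 7.79% for Nrp1 and 63.6 ± 15.8% for Kdr. There Flt4 was read in 66.0 ± 19.2% and Nrp2 in 49.0 ± 18.4% of cells, so the Flt4 share of BECs was no higher than in these cells. The shares of Flt1 and Nrp1 among LECs, at mean sums of 6.56 and 11.96 CPM, show how many cells of the opposite class carry at least 1 read of a gene at such a level. Vegfc was found in 20.1 ± 1.20% of BECs and 2.35 ± 1.21% of LECs, Vegfb in 7.87 ± 2.73% of BECs and 15.5 ± 5.71% of LECs, and Vegfa in 2.17 ± 1.65% and 4.16 ± 2.15%.

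Reads of several receptors were also sought in the same cell, where a single read counted as presence. Such shares depend on those of the single genes and were not compared with the overlap that these alone would give. Flt4 and Flt1 helped to define the classes, so the sets that hold them are a description. Flt4 and Kdr reads occurred together in 95.1 ± 1.92% of LECs, and Flt4, Kdr and Nrp2 together in 80.0 ± 10.3% of them. In BECs, Flt1, Kdr and Nrp1 were found together in 74.6 ± 8.13% of cells, and in LECs this set was found in 7.87 ± 7.04%. All 3 receptor kinases were read in 52.9% and 77.4% of control BECs and 48.7 ± 10.9% of mutant BECs. The Flt4 reads of BECs were uneven: 90% of them lay in 31 of 184 cells in mutant 2 and in 91 of 159 cells in control 1. The share with all 3 thus does not give the level per cell, and Flt4 was read about as often in cells of neither class.

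**Figure D2:**
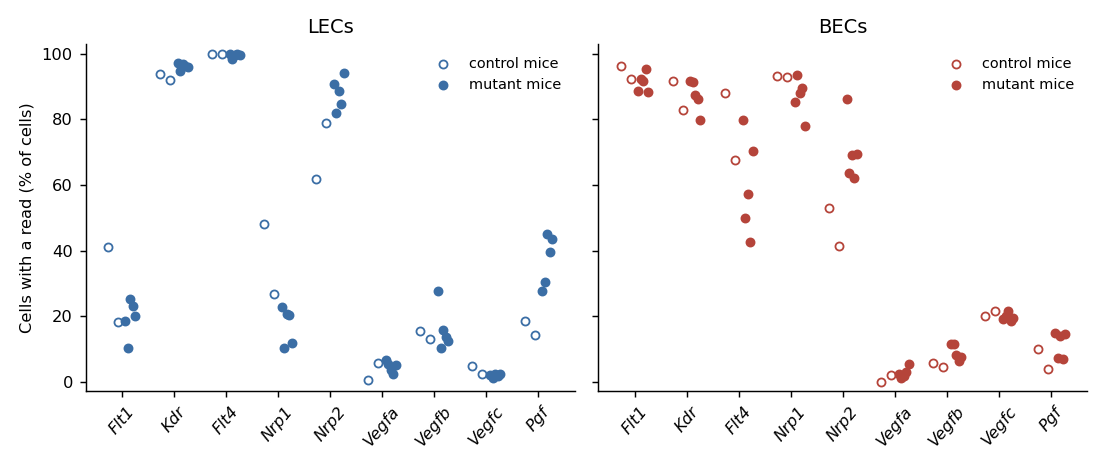
Share of LECs and BECs with at least 1 read of each gene after thinning to 50000 reads per cell, in percent, with 1 point per mouse. Flt4 lies near 100% in all LEC groups, Nrp2 and Pgf in LECs are higher in every mutant than in either control, and Vegfa stays below 7% in both classes.

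Ptx3-high LECs were compared with the other LECs of the same mice, which asks whether the lymphatic state marked by Ptx3 carries its own set of VEGF genes. Nrp2 and Pgf were higher in Ptx3-high LECs and no member was lower. These are 2 of 9 members called, against 2.73% of all genes tested. For control 1 the Ptx3-high sum held 12 cells, so its values are the least certain.

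Nrp2 measured 219 and 802 CPM in Ptx3-high LECs of controls 1 and 2, against 249 and 343 CPM in their other LECs. In mutants 1 to 5 the Ptx3-high sums were 1381, 1395, 1456, 1434 and 1017 CPM and the other LECs 463, 536, 554, 523 and 533 CPM. Ptx3-high LECs were higher in 6 of 7 mice, with control 1 the exception. The log2 fold change was 1.15 (SE 0.18, edgeR, adjusted p = 0.011), and it passed in each of the 7 fits that left out 1 mouse. With the control mice alone it was 0.61 (adjusted p = 0.534), and without the mouse block 1.28 (adjusted p = 0.0668).

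Pgf measured 153 and 76.9 CPM in Ptx3-high LECs of the controls and 114, 411, 360, 378 and 197 CPM in those of the mutants. The other LECs held 34.1 and 39.4 CPM in controls and 94.1, 72.0, 88.9, 36.0 and 81.4 CPM in mutants. Pgf was higher in Ptx3-high LECs in 7 of 7 mice, by a log2 fold change of 1.83 (SE 0.34, edgeR, adjusted p = 0.0224). The adjusted p rose above 0.05 when mutant 2 (0.0795), mutant 3 (0.0787), mutant 4 (0.0502) or mutant 5 (0.0505) was left out, and when cells positive for both marker sums were left out (0.0968), while the log2 fold change stayed between 1.60 and 2.08.

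Ptx3-high cells supplied a larger part of the Nrp2 and Pgf reads than of all reads. They held 58.3 to 72.5% of the Nrp2 reads of mutant LECs and 42.1 to 91.0% of the Pgf reads, while they held 34.9 to 49.0% of all LEC reads of those mice. In control 2 they held 47.0% of Nrp2 reads, 42.6% of Pgf reads and 27.5% of all reads. In control 1 they held 6.49% of Nrp2 reads and 26.2% of Pgf reads, against 7.33% of all reads.

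**Figure D3:**
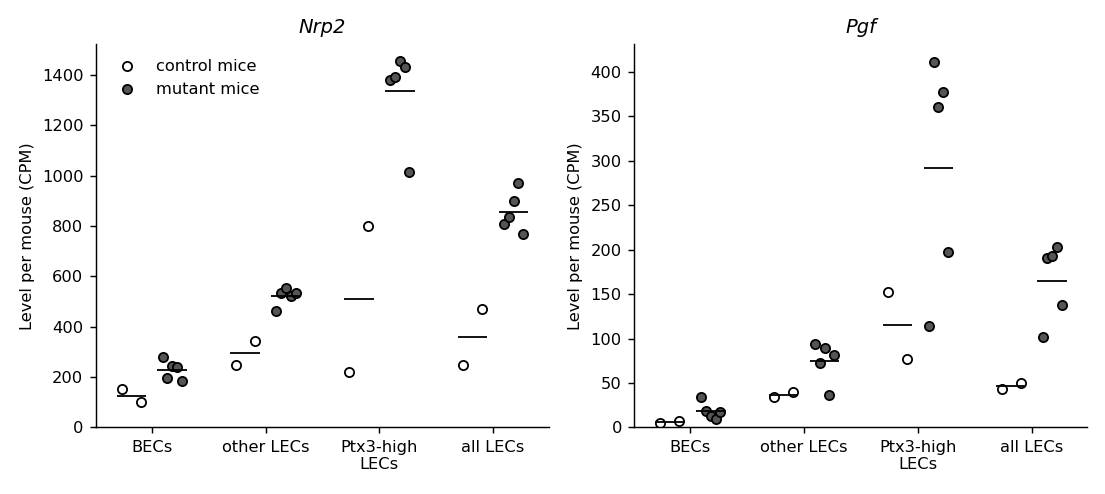
Nrp2 and Pgf in BECs, other LECs, Ptx3-high LECs and all LECs, in CPM, with 1 point per mouse, open for controls and filled for mutants, and a bar at the mean of each group. The mutant Ptx3-high sums of Nrp2 lie at 1017 to 1456 CPM, above every other sum of that gene, and in Ptx3-high LECs the Pgf groups overlap.

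The receptors differed little between these LECs. Flt4 measured 2230 and 2318 CPM in Ptx3-high LECs of the controls and 1677 to 2132 CPM in those of the mutants, against 1439 to 1938 CPM in other LECs. It was higher in 6 of 7 mice, by 0.23 on the log2 scale (SE 0.06), and did not pass with edgeR (adjusted p = 0.0636). It passed in 6 of 20 alternatives: with DESeq2 (adjusted p = 0.0293) and, by edgeR, with Ptx3 limits of 50 CPM (0.0452) and 200 CPM (0.0411), in thinned cells (0.0217), under the class rule without Flt4 and Flt1 (0.0383) and without mutant 4 (0.0264). Kdr measured 331 to 818 CPM in Ptx3-high LECs and 507 to 755 CPM in other LECs, with a log2 fold change of -0.14 (SE 0.11, edgeR, adjusted p = 0.6). Flt1, Nrp1, Vegfa, Vegfb and Vegfc had log2 fold changes between -1.35 and -0.15 and did not pass (edgeR, adjusted p from 0.485 to 0.898). Vegfa was at 0 in the Ptx3-high LECs of control 1, where the limit for 3 reads was 0.732 CPM. These limits, like all counting limits here, cover counting error only, since reads of 1 amplified molecule are not independent.

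Mutant LECs were then compared with control LECs, which addresses how PI3K activation bears on the VEGF system of lymphatic vessels. Nrp2 and Pgf rose and no member fell, giving 2 of 9 members called against 2.76% of all genes tested. The mutant sums of both genes lay above both controls. How many of all genes separate the groups in this way was not counted, here or in the genotype comparisons below. The comparisons in LECs, in BECs, in Ptx3-high and in other LECs rest on the same 2 control mice.

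Nrp2 measured 247 and 469 CPM in control LECs, and 807.5, 836, 900.3, 970 and 768 CPM in LECs of mutants 1 to 5. The log2 fold change was 1.32 (SE 0.23, edgeR, adjusted p = 0.027). Pgf measured 42.8 and 49.7 CPM in control LECs and 101.5, 190.5, 193, 203.5 and 138 CPM in mutant LECs, a log2 fold change of 1.89 (SE 0.31, edgeR, adjusted p = 0.0244). Both calls were lost when control 1 was left out (Nrp2 0.99, adjusted p = 0.059 and Pgf 1.86, adjusted p = 0.0865), when mutant 3 was left out (adjusted p = 0.0698 and 0.0602) and when mutant 4 was left out (adjusted p = 0.0665 and 0.0542). Without control 2 only Pgf lost its call (1.96, adjusted p = 0.0784), and without mutant 2 only Nrp2 did (1.33, adjusted p = 0.0581). Within plates 891 to 901, where mutant 5 stands alone against the 2 controls, the log2 fold changes were 1.17 for Nrp2 (edgeR, adjusted p = 0.597) and 1.63 for Pgf (adjusted p = 0.396). With the plate series as a term they were 1.15 (adjusted p = 0.164) and 1.61 (adjusted p = 0.143). Without cycling cells they were 1.36 (adjusted p = 0.055) and 1.89 (adjusted p = 0.027), and without cells led by markers of other cell types 1.26 (adjusted p = 0.0267) and 1.85 (adjusted p = 0.0221).

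The other 7 members did not pass in LECs. Flt4 measured 1866 and 2042 CPM in controls and 1538 to 1966 CPM in mutants, a log2 fold change of -0.09 (SE 0.13, edgeR, adjusted p = 0.749). Kdr overlapped between the groups and its log2 fold change was 0.30 (SE 0.16, edgeR, adjusted p = 0.347). Nrp1 had a log2 fold change of -2.34 (SE 0.66, edgeR, adjusted p = 0.0969), which rested on the 50.5 CPM of control 1: without that mouse the value was 0.08 (adjusted p = 0.945), and without control 2 it was -3.19 (adjusted p = 0.0149). In control 1, 177 of 183 LECs had an Nrp1 read, but 67 cells held 90% of these reads and 1 cell held 16.8%. DESeq2 called Nrp1 (-2.37, adjusted p = 0.00773), as it did 12.8% of all genes tested. Flt1 (-1.19), Vegfa (-0.36), Vegfb (-0.25) and Vegfc (-0.76) did not pass on the log2 scale (edgeR, adjusted p from 0.363 to 0.906).

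In BECs no member was called by edgeR, against 2.12% of all genes tested. At an unadjusted p under 0.05 there were 2 of 9 members, Nrp2 and Pgf, against 19.6% of all genes tested, so this count is near the background. DESeq2 called the same 2, against 11.9% of all genes. Nrp2 measured 151.5 and 100.4 CPM in control BECs and 280, 197, 244, 240 and 186 CPM in mutant BECs, so the groups did not overlap. Its log2 fold change was 0.92 (SE 0.23, edgeR, adjusted p = 0.0857). When the classes were set without Flt4 and Flt1, Nrp2 passed in BECs at 1.18 (edgeR, adjusted p = 0.0208).

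Pgf measured 5.19 and 7.75 CPM in control BECs and 34.5, 18.4, 12.5, 9.32 and 17.3 CPM in mutant BECs, a log2 fold change of 1.57 (SE 0.56, edgeR, adjusted p = 0.18). These reads were concentrated: the top cell held 37.5 to 91.1% of the Pgf reads of a mouse's BECs, and 91.1% in mutant 1. The value fell to 0.64 without cycling cells (adjusted p = 0.69) and to 0.32 without cells positive for both marker sums (adjusted p = 0.797). The receptors of BECs had log2 fold changes of -0.29 for Flt1, -0.21 for Kdr and -0.42 for Flt4 and did not pass (edgeR, adjusted p from 0.314 to 0.648). Flt1 was lower in every mutant than in either control, at 512.5 to 760 against 766 and 855 CPM, and Flt4 likewise, at 60.6 to 94.5 against 101 and 106 CPM. Both genes helped to define the classes, and under the rule without them the log2 fold change of Flt4 was 0.19. Nrp1 (-0.38), Vegfc (-0.36), Vegfb (0.73) and Vegfa (0.54) did not pass on the log2 scale either (edgeR, adjusted p from 0.358 to 0.87).

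The difference between the mutant effect in LECs and that in BECs was tested as an interaction. No member passed, against 0.191% of all genes tested. At an unadjusted p under 0.05 there was 1 of 9 members, Kdr, near the 11.5% of all genes, and DESeq2 called 0, against 5.66%. The log2 difference was 0.41 for Nrp2 (SE 0.36, edgeR, adjusted p = 0.768), 0.39 for Pgf (SE 0.70, adjusted p = 0.926) and 0.50 for Kdr (SE 0.21, adjusted p = 0.415). A change of Nrp2 or Pgf limited to LECs was therefore not shown.

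**Figure D4:**
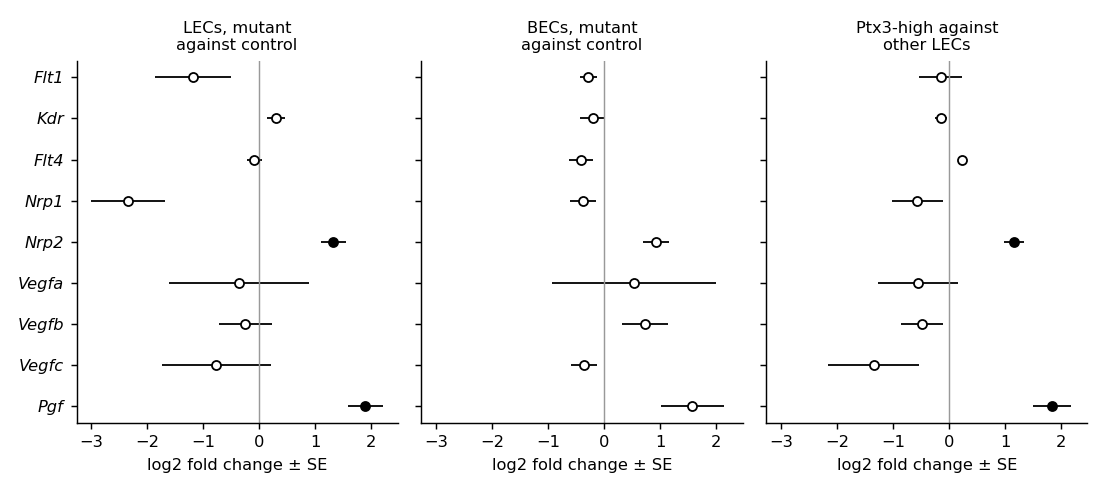
Log2 fold change of each of the 9 genes, with bars of 1 standard error, in mutant against control LECs, mutant against control BECs and Ptx3-high against other LECs, filled where the adjusted p was under 0.05. Nrp2 and Pgf are filled in the LEC genotype comparison at 1.32 and 1.89 and open in BECs at 0.92 and 1.57.

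The genotype comparison was repeated within Ptx3-high LECs and within the other LECs, since the share of Ptx3-high cells differed between the genotypes. No member was called in either, against 5.1% of all genes tested in Ptx3-high LECs and 0.0536% in other LECs. At an unadjusted p under 0.05 there were 3 of 9 members in each comparison, against 23.8% of all genes in Ptx3-high LECs and 13.6% in other LECs. DESeq2 called Nrp2 among Ptx3-high LECs (17.9% of all genes), and Nrp2 and Pgf among other LECs (6.51%). Nrp2 had a log2 fold change of 1.44 in Ptx3-high LECs (SE 0.40, edgeR, adjusted p = 0.0731) and of 0.86 in other LECs (SE 0.16, adjusted p = 0.0825), and in both the mutants lay above both controls. With Ptx3-high set at 200 CPM, Nrp2 passed in other LECs at 0.97 (adjusted p = 0.0469). Without control 2, which leaves the 12 Ptx3-high cells of control 1 as the only control sum, Nrp2 passed in Ptx3-high LECs at 2.54 (adjusted p = 0.00197) and Kdr at 0.91 (adjusted p = 0.0388), but in that fit 23.4% of all genes were called and the median of all genes was 0.69. The corresponding values of Pgf were 1.33 in Ptx3-high LECs (SE 0.55, adjusted p = 0.184) and 1.05 in other LECs (SE 0.36, adjusted p = 0.257), with overlapping groups. The difference of the mutant effect between Ptx3-high and other LECs was 0.79 for Nrp2 (SE 0.33, edgeR, adjusted p = 0.387) and 0.30 for Pgf (SE 0.75, adjusted p = 0.934), with 0.0202% of all genes called, no member called and 1 member at an unadjusted p under 0.05, against 12.2% of all genes. That test was chosen after the data had been seen, and DESeq2 was not run on it.

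The share of cells with a read was compared between the genotypes as well. In LECs thinned to 50000 reads, Nrp2 was found in 88.0 ± 4.84% of mutant cells (SD, n = 5) and in 61.7% and 78.9% of control cells, and Pgf in 37.3 ± 7.76% against 14.3% and 18.6%. Nrp1 was found in 17.1 ± 5.77% of mutant LECs and in 26.9% and 48.1% of control LECs. In BECs, Nrp2 was found in 70.1 ± 9.65% of mutant cells and in 41.4% and 52.8% of control cells. Kdr was found in 96.2 ± 1.03% of mutant LECs and in 92% and 94.0% of control LECs, and Vegfc in 1.86 ± 0.497% against 2.29% and 4.92%. For Kdr, Vegfc and Nrp1 in LECs the sums of the genotypes overlapped although the shares did not. For Pgf, Flt1 and Flt4 in BECs the sums did not overlap and the shares did. These shares were 6.90 to 14.8% against 3.82% and 10.1% for Pgf and 88.4 to 95.4% against 92.4% and 96.2% for Flt1. For Flt4 they were 42.5 to 79.8% against 67.5% and 88.1%. The shares of Nrp2, Pgf, Nrp1, Kdr and Vegfc in LECs and of Nrp2 in BECs did not overlap. Each had an exact two-sided permutation p = 0.0476, the smallest that 5 against 2 mice allow, and an adjusted p = 0.143 over 18 tests. Vegfb in BECs did not overlap either, at 6.32 to 11.5% against 4.46% and 5.66% (permutation p = 0.0952, adjusted p = 0.245). None of the shares passed, and these tests covered the members only, so how many of all genes would not overlap is not known. Without thinning, the shares in mutant and control LECs overlapped for Nrp2, at 94.1 to 100% against 94.3% and 96.7%, but not for Pgf, at 44.9 to 85.6% against 30.9% and 39.9%, or Nrp1, at 42.8 to 69.6% against 72.0% and 96.7%. Pgf and Nrp2 were read in the same cell in 35.2 ± 7.23% of mutant LECs and in 10.9% and 11.4% of control LECs.

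The members also varied among the groups of cells found by clustering. It used the 2000 most variable genes with the members left out. The values per cluster were not tested and are a description. LECs fell into 14 clusters and BECs into 12, and levels are means over the mice with at least 5 cells in the cluster. Nrp2 was highest in a Ptx3 capillary LEC-like cluster, named from raised Ptx3, Ackr2, Cd276 and Stab2, with 155 cells, none from a control mouse. There it measured 1766 ± 454 CPM (SD, n = 5), with 412 ± 173 CPM of Pgf. The list behind the name of this cluster also holds Itih5 and Mrc1, which were not among its raised markers. Unnamed LEC clusters led by Osr1 and Tmem119 and by Ramp3 and Cd44, with 107 cells each and again no control cells, held 1428 ± 264 and 1316 ± 168 CPM of Nrp2 and 273 ± 87.1 and 328 ± 135 CPM of Pgf. A cluster led by Postn, with 13.1% of mutant LECs and 0.279% of control LECs, had 994 ± 140 CPM of Nrp2 but only 63.3 ± 34.4 CPM of Pgf, and the highest Kdr of any LEC cluster at 928 ± 166 CPM.

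The valve LEC-like cluster, with raised Cldn11, Foxc2 and Gja4 but not the listed Itga9, Neo1 and Vwf, stood at the other end. Its 49 cells came from all 7 mice and held 38.7 ± 25.8 CPM of Nrp2 and 736 ± 279 CPM of Flt4, the lowest of both among LEC clusters, while Kdr was 638 ± 230 CPM. A cluster of 216 LECs led by Thbs1 and found in all 7 mice had 153 ± 92.6 CPM of Pgf, from 226 CPM in control 1 (9 cells) and 70.7 CPM in control 2 (38 cells) to 44.0 to 299.5 CPM in the mutants. Nrp1 and Vegfc among LECs were highest in a cluster of 52 cells led by the keratinocyte genes Perp and Krt15, at 174 ± 183 and 21.4 ± 31.4 CPM (n = 5). In the 13 other LEC clusters Nrp1 did not exceed 6.22 CPM.

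In BECs, the capillary BEC-like cluster (267 cells) had raised Car4, Cd36 and Gpihbp1 but not the listed Fabp4. It had the highest Flt1, Kdr and Nrp1, at 1257 ± 143, 1124 ± 276 and 1490 ± 320 CPM (n = 7). The arterial BEC-like cluster (125 cells, raised Gja4, Gja5 and Bmx) had the highest Vegfc, at 244 ± 109 CPM, and the lowest Nrp2 of the clusters seen in more than 1 mouse, at 46.9 ± 25.3 CPM. Its Vegfc measured 365 and 425 CPM in the controls and 132 to 226 CPM in the mutants. Nrp2 was highest in the angiogenic BEC-like cluster (raised Angpt2, Cxcr4 and Trp53i11) at 450 ± 155 CPM (n = 4). The list behind that name also holds Apln and Esm1, which were not among the raised markers, and the member Pgf. Next came a venous BEC-like cluster of 229 mutant cells with 380.5 ± 71.1 CPM of Nrp2 (n = 5), in which the listed Aplnr was not raised. A second venous BEC-like cluster found in all 7 mice had 204.5 ± 82.1 CPM of Nrp2. It had raised Ackr1, Selp and Sele but not the listed Vwf, Nr2f2 and Aplnr. Pgf in BECs was concentrated in the 34 angiogenic BEC-like cells, at 207 ± 165 CPM, and in 43 cycling cells, at 133 ± 131 CPM (n = 4 each), and did not exceed 7.74 CPM elsewhere.

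**Figure D5:**
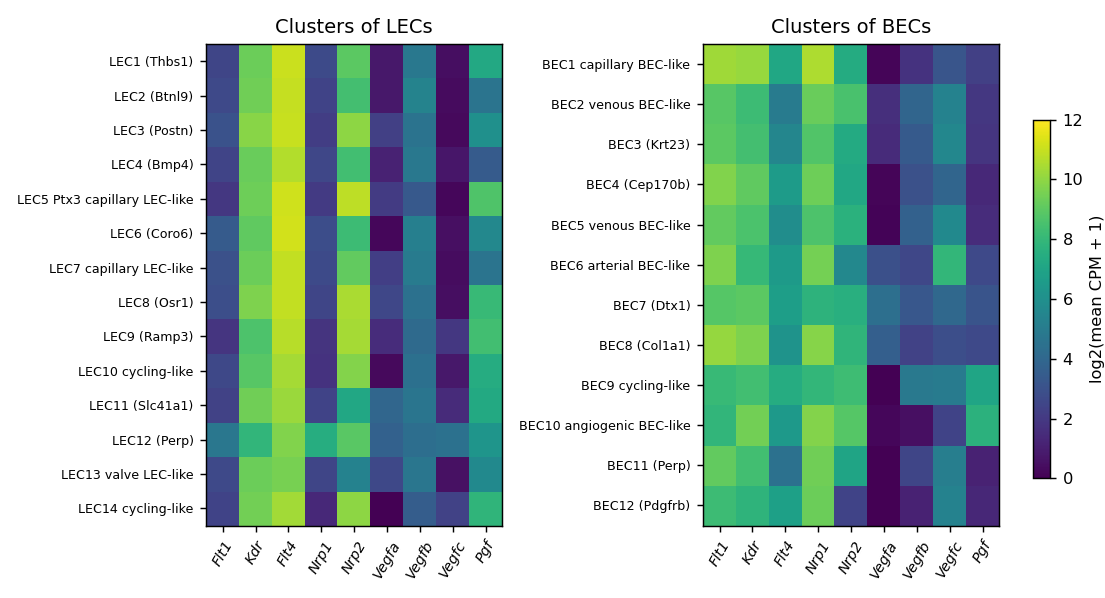
Mean level of each of the 9 genes per cluster of LECs and BECs, as log2(CPM + 1) by colour, with unnamed clusters labelled by their first leading gene. Flt4 is present in all LEC clusters, but it is part of the rule that chose LECs. Nrp2 is brightest in the Ptx3 capillary LEC-like cluster (1766 CPM) and dimmest among LECs in the valve LEC-like one (38.7 CPM). Vegfc is brightest in the arterial BEC-like cluster (244 CPM).

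The genes whose pattern was most like each member were sought by Pearson's r of log2(CPM + 1) over 21 sums (BECs, Ptx3-high LECs and other LECs of 7 mice) among 9583 genes. The sums share mice and most of the spread lies between LECs and BECs, so r is a description. For Nrp2 the closest genes were Elk3 (r = 0.956), Capzb (0.950) and Ywhag (0.927), and for Pgf they were Cotl1 (0.955), Ggct (0.940) and C77080 (0.929). Nrp2 and Pgf had r = 0.870 with each other. For Flt1 they were Scarb1, Slc26a10 and Mecom (0.987 to 0.988), for Nrp1 Mecom, C1qtnf9 and Scarb1 (0.988 to 0.991) and for Vegfc Kcna5, Papss2 and Nrp1 (0.974 to 0.982). For Flt4 they were Apba2, Abi3bp and Ntn1 (0.986 to 0.988). Kdr, which differed least between the classes, had lower values with Tbxa2r (0.864), Mtbp (0.786) and Mbnl1 (0.781), as had Vegfb with Frs3 (0.848), Rap2a (0.822) and Vps39 (0.799). Vegfa was too low to be included.

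The other genes of the pathway were taken as 7 lists. Each list is described by its calls and its median log2 fold change, beside those of all genes tested. For LECs over BECs, 25.9% of all genes were called and the median of all genes was 0.0038. Of 20 VEGF-responsive genes, 12 were lower and 1 was higher in LECs, with a median of -2.23. Esm1, an endothelial proteoglycan of sprouting cells, had a log2 fold change of -7.12, Cxcr4, a chemokine receptor, -6.89 and Aplnr, the apelin receptor, -6.76, while Nid2, a basement membrane protein, rose by 1.36 (edgeR, adjusted p from 1.53e-05 to 7.04e-04). Of 20 receptor partners, 10 were higher and 9 lower in LECs (median 0.17). Integrin genes Itga9 (2.63) and Itgb3 (2.38) and Pard3 (2.79), which bears on receptor uptake, were the highest, and Clec14a (-4.14), Adgrl4 (-3.84) and Rab4a (-5.24) the lowest. Of 11 semaphorin-3 and plexin genes tested, 4 were higher and 3 lower in LECs (median 0.82): Sema3a (4.94) and Sema3d (4.62), ligands of neuropilins, were higher, and Sema3g (-6.51) was lower. Of 8 ligands and ligand-processing genes, Pcsk6, a proprotein convertase, was higher (4.15), and Pcsk5 (-1.74) and Furin (-0.50) were lower (median -0.45). Signal transducers divided into 7 higher and 5 lower of 29 (median -0.10), oxygen-sensing genes into 2 and 6 of 15 (median -0.28) and receptor gene regulators into 5 and 6 of 20 (median -0.06).

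In Ptx3-high against other LECs, the median of all genes tested was -0.08, and 2.73% of them were called. Of 20 receptor partners 2 rose and 1 fell (median -0.14). Itga9, which pairs with Itgb1 as a VEGF-C-binding integrin, rose by 0.79 (SE 0.08, edgeR, adjusted p = 0.00268) and Itgb1 by 0.49 (SE 0.06, adjusted p = 0.00461), whereas Mmrn2, a ligand of Clec14a, fell by 1.73 on the log2 scale (adjusted p = 0.0202). Of 15 VEGF-responsive genes tested Nid2 rose (0.62) and Dll4 (-1.41) and Pdgfb (-2.64) fell (median -1.24). Of the other lists, Pcsk6 rose by 0.39 among 7 ligand-processing genes tested, Plcg1 fell by 0.31 among 27 signal transducers, Adm (-2.77) and Epas1 (-0.83) fell among 14 oxygen-sensing genes, and among 20 regulators Ets2 rose (0.35) while Tbx1 (-1.12), Gata2 (-0.91) and Prox1 (-0.34) fell (medians -0.17, -0.15, -0.09 and -0.31). None of 10 semaphorin and plexin genes passed by edgeR (median 0.09), with 2 at an unadjusted p under 0.05 and 2 called by DESeq2, against 15.8% and 11% of all genes.

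In mutant against control LECs, the median of all genes tested was -0.0073, and 2.76% of them were called. Itgb1 rose by 0.84 (SE 0.13, edgeR, adjusted p = 0.0191) and Itga9 by 0.88 (SE 0.16, adjusted p = 0.0327), and Adgrl4, an adhesion receptor of endothelial cells, fell by 1.74 on the log2 scale (adjusted p = 0.0418), out of 20 receptor partners (median 0.22). Itga9 measured 190 CPM on average in control LECs and 336 ± 39.6 CPM in mutant LECs. Among 18 VEGF-responsive genes tested none rose and 2 fell, the immediate early gene Egr1 by 2.78 (adjusted p = 0.00392) and Hes1, a Notch target, by 1.13 (adjusted p = 0.0383), with a median of -0.60. A LEC cluster with Zfp36, Fos, Egr1 and Fosb among its leading genes held 32.7% of control LECs and 2.104% of mutant LECs, and its part in the fall of Egr1 was not tested. Of the remaining lists, Sema3d rose by 0.80 (1 of 11 tested, median 0.51), Hif1a by 1.19 (1 of 15, median 0.06) and Ets2 by 0.68, while Sox7 fell by 0.73 (20 regulators, median -0.02) and Hspb1, a substrate of the p38 pathway, by 1.29 (1 of 29, median 0.06). None of 8 ligand-processing genes passed by edgeR (median -0.49), with 2 at an unadjusted p under 0.05 and 1 called by DESeq2, against 20.1% and 12.8% of all genes.

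In mutant against control BECs, the median of all genes tested was 0.0078, and 2.12% of them were called. Of 20 VEGF-responsive genes 2 rose and 2 fell (median -0.41). Apln, the ligand of the apelin receptor, rose by 2.69 (SE 0.36, edgeR, adjusted p = 0.0117), from a mean of 150.5 CPM in controls to 925 ± 245 CPM in mutants, and Rcan1, a calcineurin target, by 2.05 (adjusted p = 0.0423). Egr1 fell by 1.74 (adjusted p = 0.0103) and Dll4, a Notch ligand, by 1.24 on the log2 scale (adjusted p = 0.0306). Clec14a rose by 1.39 and the arterial ephrin Efnb2 fell by 0.93 among 20 receptor partners (median 0.46). Hif1a rose by 1.02 (1 of 15, median 0.42), Hspb1 fell by 1.19 (1 of 28 tested, median 0.20), and Nr2f2, the venous regulator COUP-TFII, rose by 1.74 while Sox7 fell by 0.99 among 20 regulators (median 0.27). None of 12 semaphorin and plexin genes (median 0.12) or 8 ligand-processing genes (median 0.0068) passed by edgeR. At an unadjusted p under 0.05 there were 2 and 1, against 19.6% of all genes. DESeq2 called 1 and 0, against 11.9% of all genes.

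Over all 7 lists, 1 gene differed in its mutant effect between LECs and BECs, against 0.191% of all genes tested. This was Nr2f2, with a log2 difference of -2.22 (SE 0.19, edgeR, adjusted p = 0.012). It averaged 259 CPM in control LECs and 188 ± 7.93 CPM in mutant LECs, against 34.0 CPM in control BECs and 110 ± 14.02 CPM in mutant BECs.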

How the data were processed

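Single-cell RNA was measured in LECs and BECs of 5 mutant and 2 control mice, and control mouse 3 was not analysed here. The deposited values are raw read counts per gene and well, which the authors made by aligning to GRCm38 and the chicken PIK3CA sequence with TopHat2 (2.1.1), removing duplicate reads with SAMtools (0.1.18) and counting with featureCounts. The annotation release was not given in the sources used here, so symbols (46005 of 46517 genes) and positions came from the GENCODE release of that build. The level of the PIK3CA transgene was not analysed here. Deposited exon lengths, in a unit of bases, served only for CPM per kb.

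A well was kept if it held 200 or more genes and 50000 or more reads, of which mitochondrial genes took no more than 10%. No doublet caller was run, and 0 well names occurred more than once on a plate. The 92 spike-in rows were left out. CPM were computed from the counts. Counts were summed per mouse and class (plates of a mouse together), filtered with filterByExpr, and tested across all genes with the quasi-likelihood test of edgeR (4.0.16, R 4.3.3) after TMM scaling, with Benjamini-Hochberg adjusted p under 0.05 as a call. The mouse was a block in LECs against BECs, in Ptx3-high against other LECs and in the difference of the mutant effect between LECs and BECs. The genotype fits had no block: mutants and controls share only replicate numbers. DESeq2 (1.42.0) was the alternative. In simulated counts both tools were tested on genes with known changes. Further alternatives changed scaling, filter, depth, class rules, plate series and cells.

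Shares of cells were compared after thinning to 50000 reads by exact permutation tests over mice. Clusters came from leidenalg (0.10.2), and a name required at least 3 listed markers raised. Promoters came from RefSeq (GRCm38.p6), in which all 9 genes were matched. The named genes were the 9 members, up to 3 called genes per pathway list, comparison and direction with the largest absolute log2 fold change, and the 3 genes most like each member with at least 10 CPM. Members and lists were chosen with earlier results of these data known, so their counts are not independent evidence. Mice were the replicates, and p-values measure the spread between them.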

Additional observations from a re-analysis of the deposited data

Results flagged for a closer look

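Among the 36 groups of 5 mutant mice examined (9 genes in 4 classes), 8 held a value far from the other 4 mice by Dixon's criterion, where chance gives about 1 in 20. The groups overlap, since the Ptx3-high and other LECs make up the LECs, and no cause was tested.

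Mutant 1 was the highest of the mutants for Nrp1 in LECs (8.77 CPM, next 4.83 CPM) and in other LECs (12.1 CPM, next 5.50 CPM), and 1 cell held 57.2% of its Nrp1 reads in LECs. It was also the highest for Vegfb in LECs (46.6 CPM, next 20.1 CPM) and in other LECs (53.0 CPM, next 21.8 CPM). Its share of cycling LECs, 34.2%, was the highest of all mice.

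Mutant 4 was the highest for Vegfc in LECs (2.35 CPM, next 0.883 CPM) and in Ptx3-high LECs (4.30 CPM, next 0.454 CPM), and 1 cell held 79.7% of the Vegfc reads in its LECs.

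Mutant 5, the mutant whose plates were numbered in the same series as those of the controls, was the lowest for Kdr in other LECs (534 CPM, next 704 CPM) and for Nrp2 in Ptx3-high LECs (1017 CPM, next 1381 CPM). For Kdr in other LECs it stood between the controls at 507 and 630 CPM, and for Nrp2 in Ptx3-high LECs above both controls at 219 and 802 CPM.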

How the results depend on the processing

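Of 1165 member fold changes under the alternatives, 1076 kept their direction and their side of the threshold, 35 turned direction, 20 newly passed, 30 no longer passed and 4 moved; of 130 counts of members called, 109 stayed within 1.5 times. The cause was not tested unless stated.

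The replicate numbers 1 and 2 occur in both genotypes, but samples with the same number did not deviate together in LECs (r = -0.05 and -0.02 over 10079 genes; in BECs 0.01 and 0.13). With the replicate block, the members called in mutant against control LECs went from 2 to 0 and the genes called from 546 to 3 in LECs, 410 to 0 in BECs, 853 to 29 in Ptx3-high LECs and 10 to 0 in other LECs. Under the block Vegfa turned to 1.94 in LECs and 1.87 in other LECs, and Vegfc to 0.13 in other LECs and -1.55 in Ptx3-high LECs (log2 scale). With the plate series as a term or within plates 891 to 901, 0 members were called in LECs, Kdr was -0.061 and -0.048 in LECs and -0.093 and -0.080 in other LECs, and Vegfc was -0.93 in Ptx3-high LECs with the term. The genes called then numbered 178 and 3 in LECs, 54 and 0 in BECs, 24 and 48 in Ptx3-high LECs and 1 and 1 in other LECs.

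With control mice only, 0 members were called for LECs against BECs (661 genes against 4559) and 0 for Ptx3-high against other LECs (48 genes against 430, an alternative chosen after seeing the data). Kdr was then -0.076 in the former and Vegfb 0.40 in the latter. Without the mouse block the Ptx3-high comparison called 1 member (Pgf) and 130 genes, without cells of both marker sums 1 member (Nrp2) and 48 genes, and over mutants alone 1098 genes. Without cycling cells 1 member (Pgf) and 82 genes were called in mutant LECs, and 281 genes in Ptx3-high LECs. DESeq2 called 2 members in BECs, 1 in Ptx3-high LECs and 2 in other LECs, and more genes in every comparison (2472, 2238, 2925 and 1185 for mutant LECs, BECs, Ptx3-high and other LECs, 1732 for Ptx3-high against other LECs and 1241 against 42 for the difference between LECs and BECs, of which 38.8% against 16.7% were higher). The Ptx3 limit of 200 CPM gave 1 member and 82 genes in other LECs.

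The class rule without Flt4 and Flt1 gave 2 members in BECs, and turned Nrp1 (0.13) and Vegfc (0.40) in Ptx3-high against other LECs, Vegfc in mutant LECs (0.48), Flt4 in mutant BECs (0.19), and the difference between LECs and BECs for Flt4 (-0.16) and Pgf (-0.55). Without cells of both marker sums, Vegfc was 2.21 in mutant LECs and 2.24 in other LECs and Vegfa -0.70 in Ptx3-high LECs; without cells led by other markers, Vegfc was 0.78 in LECs and 0.23 in other LECs.

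Leaving out 1 mouse at a time, the members called ranged from 1 to 2 for Ptx3-high against other LECs (genes 166 to 834), from 0 to 2 in mutant LECs (genes 153 to 546) and from 0 to 2 in mutant Ptx3-high LECs (genes 288 to 4336, the latter without control 2). Genes called ranged from 159 to 586 in BECs, from 0 to 10 in other LECs and from 0 to 21 for the difference. In LECs the log2 fold changes ranged from -1.87 to 0.17 for Flt1, from -3.19 to 0.081 for Nrp1, from -1.33 to 6.01 for Vegfa and from -1.65 to 2.00 for Vegfc, in other LECs from -1.78 to 0.62, -3.11 to 0.43, -1.56 to 5.96 and -1.89 to 1.73 for the same genes, and in BECs from -0.69 to 0.073 for Vegfc. The difference between LECs and BECs ranged from -1.68 to 0.14 for Flt1, from -3.01 to 0.52 for Nrp1, from -0.34 to 1.12 for Nrp2 and from -1.95 to 2.42 for Vegfc. The mutant minus control share of LECs with a read ranged from -21.6 to 1.10 percentage points for Flt1 and from -1.15 to 4.02 for Vegfa. A control left out leaves 1 control, which is assumed to vary like the mutants.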

Other observations

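The genotype comparison within Ptx3-high LECs called further genes around the members, beside 5.1% of all genes tested. Sema3a, a neuropilin-1 ligand, rose by 2.50 on the log2 scale (SE 0.58, edgeR, adjusted p = 0.0453), from a mean of 61.4 CPM in controls to 340 ± 126 CPM in mutants, and Sema3d by 1.00 (SE 0.17, adjusted p = 0.018), 2 of 10 semaphorin and plexin genes tested. Among 20 receptor partners Itga9 rose by 0.72 (adjusted p = 0.0472), Ptprj, which encodes a receptor tyrosine phosphatase, rose from a mean of 0.030 CPM to 6.09 ± 3.55 CPM (adjusted p = 0.0317), and Adgrl4 (-3.70) and Cd63 (-0.71) fell. Angpt2 fell by 2.52 (adjusted p = 0.0125), 1 of 3 genes that fell among 16 VEGF-responsive genes. These calls rest on control sums of 12 and 44 cells.

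Pgf and Nrp2 were read in the same cell in 40.3 to 68.3% of Ptx3-high LECs of the mutants and in 18.2% and 25% of those of the controls, against 14.2 to 31.2% and 9.16% and 9.94% of other LECs in the same order.

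The 117 cells of neither class carried Nrp1 at 9.06 to 374 CPM and Kdr at 7.25 to 597 CPM per mouse, with Flt4 at 12.7 to 44.0 CPM. Keratinocyte markers summed to 5.25 to 9184 CPM in these cells.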
